A study of Mus musculus with 14 samples.

Results

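The repressive mark H3K27me3, which the Polycomb complex PRC2 places on histone H3, was examined over Hoxa2 to Hoxa13, 10 protein-coding Hox genes (Hoxa2, Hoxa3, Hoxa4, Hoxa5, Hoxa6, Hoxa7, Hoxa9, Hoxa10, Hoxa11 and Hoxa13) that lie side by side on mouse chromosome 6. The members were the peaks of the deposited Cut&Tag count table between chr6:52163046-52274461 (mm10), 111.4 kb that hold 46 of the 74458 peaks of the table. The 10 genes stand among 15166 protein-coding genes that overlap at least 1 peak. Of the 46 peaks, 33 overlapped the body of a member gene, 13 overlapped none, and 5 overlapped 2 members, since the RefSeq body of Hoxa3 begins beyond Hoxa6 and contains Hoxa4, Hoxa5 and Hoxa6.

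The libraries came from mouse embryonic stem cells (mESCs), pluripotent cells cultured with LIF on CD1 feeder cells, in which CRISPR-Cas9 had removed 1 of 3 Polycomb-bound regions. The Hoxa cluster was intact in the cells with the Wnt6 Deletion (2 libraries) and in those with the Hmx1 Deletion (2 libraries), which carry all values of levels below. The Hoxa Deletion (3 libraries) lacks the members and served as background. All cells are derivatives of an F1 hybrid line and all carry 1 of these homozygous deletions, so no library of unedited cells enters a comparison, and where a deletion is represented by 1 clone, as the study's wording has it, deletion and clone cannot be told apart. The label of the cells was set against H3K27me3 at 8 stem cell genes, where the mark is low if the genes are in use. Nanog and Dppa5a overlapped no peak, and the 6 others (Pou5f1, Sox2, Klf4, Zfp42, Esrrb and Tfcp2l1) lay between 3.43 (Sox2) and 18.6 (Esrrb) CPM per kb of peak, where CPM are counts scaled to a common library total. Esrrb, Klf4 (9.57) and Zfp42 (8.31) lay above the median of all peaks, 7.75 CPM per kb. Pou5f1 (4.60), Sox2 and Tfcp2l1 (5.22) lay below it, so against all peaks the mark was not low at each of these genes. All 6 lay below the lowest of the 10 Hoxa genes, Hoxa4 at 31.5 CPM per kb. Expression was not measured in these files. The 7 H3K27me3 libraries held from 6016500 to 36563541 counts.

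Hox genes encode homeodomain transcription factors that give cells their position along the body axis, and they are switched on in development in the order in which they lie in the cluster. In mESCs the clusters are among the best known targets of Polycomb: PRC1 and PRC2 occupy them over long stretches, rich in CpG dinucleotides and poor in transcription, and hold them silent but ready for activation. Hoxa2 and Hoxa3 act in the hindbrain and the pharyngeal arches, Hoxa4 to Hoxa7 along the neck and trunk, and Hoxa9 to Hoxa13 in the posterior trunk, the limbs and the urogenital tract. Evx1, a homeobox gene beyond the Hoxa13 end of the cluster, lies outside the interval. The interval runs past the start of Hoxa13, at 52260880, so its last peaks, up to 52274461, lie between Hoxa13 and Evx1.

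The starts of the member genes differed in CpG content. RefSeq promoter windows (GRCm38.p6, 250 bases before and 50 after each start) were available for 9 members, with 2 windows for Hoxa10 and none for Hoxa4. The number of CG dinucleotides (CG reads the same on both strands) ranged from 4 in the window of Hoxa9 to 45 in that of Hoxa13, with a median of 17.5 against 7 over 32851 windows of all genes. In 9 of the 10 windows it lay above that genome-wide median. The 250 bases before the start are printed for Hoxa13, the richest window, Hoxa5, a rich window that no peak touched, and Hoxa9, the poorest, with each CG in capitals.
Hoxa13, chr6:52260881-52261130, minus strand: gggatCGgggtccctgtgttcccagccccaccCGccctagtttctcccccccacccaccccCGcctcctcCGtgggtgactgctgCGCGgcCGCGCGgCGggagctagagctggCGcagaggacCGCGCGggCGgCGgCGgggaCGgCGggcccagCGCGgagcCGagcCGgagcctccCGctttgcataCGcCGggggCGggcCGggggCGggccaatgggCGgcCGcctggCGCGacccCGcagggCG
Hoxa5, chr6:52204588-52204837, minus strand: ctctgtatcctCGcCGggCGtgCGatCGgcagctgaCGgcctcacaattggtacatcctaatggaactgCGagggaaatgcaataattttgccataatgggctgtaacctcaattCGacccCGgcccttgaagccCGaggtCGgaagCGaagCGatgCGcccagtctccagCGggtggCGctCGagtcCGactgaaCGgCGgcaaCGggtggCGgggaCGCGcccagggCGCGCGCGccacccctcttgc
Hoxa9, chr6:52227371-52227620, minus strand: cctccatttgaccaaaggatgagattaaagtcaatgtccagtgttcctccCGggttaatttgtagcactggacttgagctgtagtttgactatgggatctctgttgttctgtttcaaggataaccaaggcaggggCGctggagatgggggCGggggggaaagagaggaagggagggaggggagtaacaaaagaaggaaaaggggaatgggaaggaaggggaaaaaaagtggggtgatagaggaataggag

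The upstream bases of Hoxa13 hold 35 CG, those of Hoxa5 hold 28 and those of Hoxa9 hold 3. Of all windows, 98.1% held fewer CG than that of Hoxa13 and 31.4% fewer than that of Hoxa9. The TATA box letters TATAAA, or TTTATA on the other strand, were in 1 of the 10 windows, the second of Hoxa10, and in 13.6% of all windows. A peak overlapped 6 of the 10 windows, against 43.9% of all. The 4 others belonged to Hoxa2, Hoxa5, Hoxa9 and the first start of Hoxa10, with the nearest peak 57 to 1130 bp away, farthest for Hoxa9. The CG count did not order the level: the peak over the Hoxa13 window (chr6:52260723-52263335) had 30.6 CPM per kb, whereas the peak nearest the Hoxa9 window (chr6:52225110-52226191) had 62.7. Across the 10 windows, which share their libraries and in part their base composition, Spearman's rho of CG count with the level of the nearest peak was -0.46, and across 14416 windows of all genes that overlapped a peak it was 0.08.

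H3K27me3 covered the interval in many separate peaks. The peaks were 273 to 2820 bp wide, with a median of 723.5 bp against 476 bp in the whole table, and filled 36.7% of the interval. The median gap between neighbours was 1246 bp, and the widest gap was 5156 bp, from 52253845 to 52259001, next to Hoxa13. The level, as CPM scaled by TMM factors per kb of peak and averaged over the 4 intact libraries, had a median of 46.6 over the 46 peaks and of 7.75 over all peaks, a 6.01-fold difference. All 46 peaks lay above the median of the table, 40 were among its densest 10%, 16 among the densest 5% and 2 among the densest 1%. Peaks within a member's body (median 46.6) and those in none (median 45.8) had similar levels, so the mark was not limited to the genes. Because these are bulk libraries, more cells with the mark and more of the mark in each cell cannot be told apart.

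Along the cluster the level varied 5.50-fold, from 20.8 to 114 CPM per kb. The densest peak, chr6:52172084-52172817, lay in Hoxa3, 3.03 kb from the end of the gene and 40.2 kb from its start. It had 130 and 114 CPM per kb in the Hmx1 deletion libraries and 109 and 103 in the Wnt6 deletion libraries (114 ± 11.8, SD, n = 4), and ranked 145 of all 74458 peaks. Its neighbour in the same part of Hoxa3, chr6:52169924-52171164, followed with 91.5 and 93.8 in the Hmx1 deletion and 87.7 and 81.0 in the Wnt6 deletion (88.5 ± 5.59). The peak in the third place, chr6:52221359-52222575, lay between Hoxa7 and Hoxa9 in no member's body (80.1 and 75.5, then 83.6 and 67.9 CPM per kb, 76.8 ± 6.77). In each of these 3 peaks the second Wnt6 deletion library was the lowest.

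The lowest peaks were also in Hoxa3, whose body is the longest by far. They were chr6:52197480-52197983 (20.8 ± 3.21 CPM per kb), chr6:52180263-52181277 (23.7 ± 4.36) and chr6:52189052-52190753 (27.9 ± 3.04), the last shared with Hoxa4. The lowest of them still ranked 12000 of 74458. The order of the peaks was alike in the 4 libraries: Pearson's r across the 46 peaks was 0.921 to 0.984 for the 6 pairs of libraries, which is a description over peaks of shared width and sequence. It was 0.955 and 0.932 for libraries of the same deletion, within the range of the others. On the log2 scale the SD among the 46 peaks was 0.52. The SD among libraries was taken after each library's mean over the 46 peaks was subtracted, which removes differences in overall level. Its median was 0.11. The largest was 0.30, at a peak in Hoxa7 (chr6:52216001-52216314) that had 51 counts in the shallowest library. The differences along the cluster were thus several times the median spread between libraries, apart from the libraries' overall level.

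**Figure D1:**
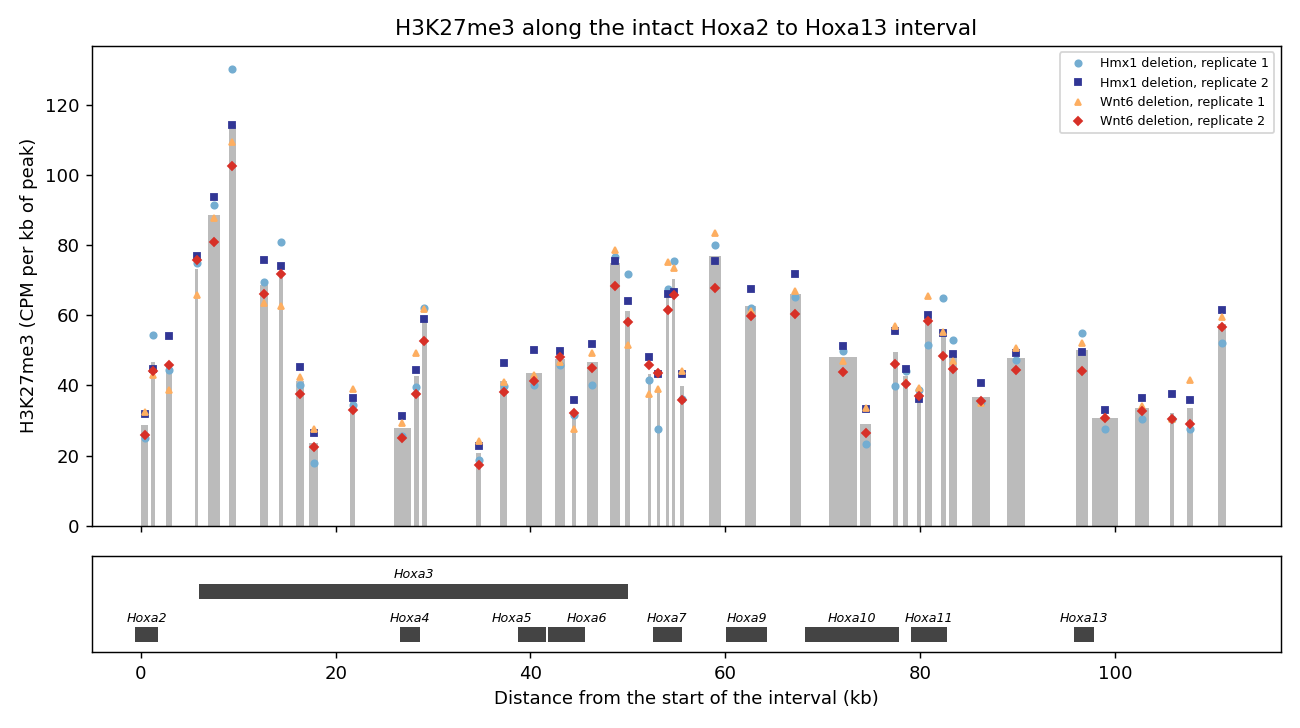
H3K27me3 in CPM per kb of peak (vertical axis) against the distance from the start of the interval in kb (horizontal axis) for the 46 peaks. Grey bars are peaks drawn to their width with the mean of 4 libraries as height, symbols are the libraries with an intact cluster, and dark bars below are gene bodies. The 4 libraries follow the same rises and falls, from the densest peak in Hoxa3 (114) to the lowest (20.8).

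Levels per gene were taken over all peaks that overlap a gene body. In this measure the 10 genes spanned a 2.0-fold range (± 0.168, SD, n = 4) from Hoxa9 to Hoxa4. Hoxa9, a posterior gene that is also active in blood progenitors, had 62.1 and 67.5 CPM per kb in the Hmx1 deletion and 61.2 and 59.9 in the Wnt6 deletion (62.7 ± 3.32), from a single peak. Hoxa4, which acts in the neck region, had 29.0 and 34.6, then 34.2 and 28.2 (31.5 ± 3.39). Every library had a lower level at Hoxa4 than any library had at Hoxa9.

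Between these ends stood Hoxa7 (54.4 ± 2.97), Hoxa11 (52.7 ± 2.34) and Hoxa3 (52.0 ± 2.85). Below them came Hoxa5 (43.7 ± 4.38), Hoxa10 (43.5 ± 3.23) and Hoxa6 (43.1 ± 2.07), then Hoxa13 (37.2 ± 1.52) and Hoxa2 (35 ± 1.85). Hoxa7 patterns trunk vertebrae, Hoxa11 and Hoxa13 act in the limb and the reproductive tract, and Hoxa5 in the lung and the cervical region. Neighbours in this order were taken to differ where all 4 libraries kept the order and the gap exceeded the larger SD. This held for Hoxa9 over Hoxa7, Hoxa3 over Hoxa5, Hoxa6 over Hoxa13, Hoxa13 over Hoxa2 and Hoxa2 over Hoxa4. It did not hold among Hoxa7, Hoxa11 and Hoxa3, nor among Hoxa5, Hoxa10 and Hoxa6. Against the 15166 protein-coding genes, the members ranked from 603 (Hoxa9) to 2590 (Hoxa4).

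The order depended on the length by which counts were divided. Per kb of gene body the ratio of the highest to the lowest member was 4.57 and ran from Hoxa13 to Hoxa6. With the densest peak of each gene it was 2.71 and ran from Hoxa3 to Hoxa4. Peaks counted whole, also where they reach beyond a gene: Hoxa13 had 3.935 kb of peak over a body of 2028 bp. Values per kb of gene body are therefore not densities within the body. All peaks of Hoxa4, Hoxa5 and Hoxa6 are shared with Hoxa3, so the low level of Hoxa4 is that of peaks inside the body of Hoxa3. Without shared peaks 7 members were left, and the ratio was 1.79, from Hoxa9 to Hoxa2. Within Hoxa3 the 13 peaks in no other member had 59.1 ± 3.18 CPM per kb, and the 7 peaks between the end of Hoxa3 and Hoxa4 had 64.1 ± 3.63, both above its level over all 18 peaks (52.0 ± 2.85).

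The densest peak of each gene gave the height of the mark apart from the length of the gene. After that of Hoxa3 came those of Hoxa7 (chr6:52217533-52217931, 70.4 ± 4.86 CPM per kb), Hoxa9 (its single peak) and Hoxa11 (chr6:52243555-52244236, 58.9 ± 5.69). Those of Hoxa13 (chr6:52259001-52260324, 50.2 ± 4.67), Hoxa10 (chr6:52240274-52240748, 49.6 ± 8.03), Hoxa6 (chr6:52205540-52206542, 47.6 ± 1.76) and Hoxa2 (chr6:52164119-52164536, 46.6 ± 5.23) lay close together. Hoxa5 (chr6:52202583-52204200, 43.7 ± 4.38) and Hoxa4 (chr6:52191053-52191600, 42.7 ± 5.26) had the lowest.

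**Figure D2:**
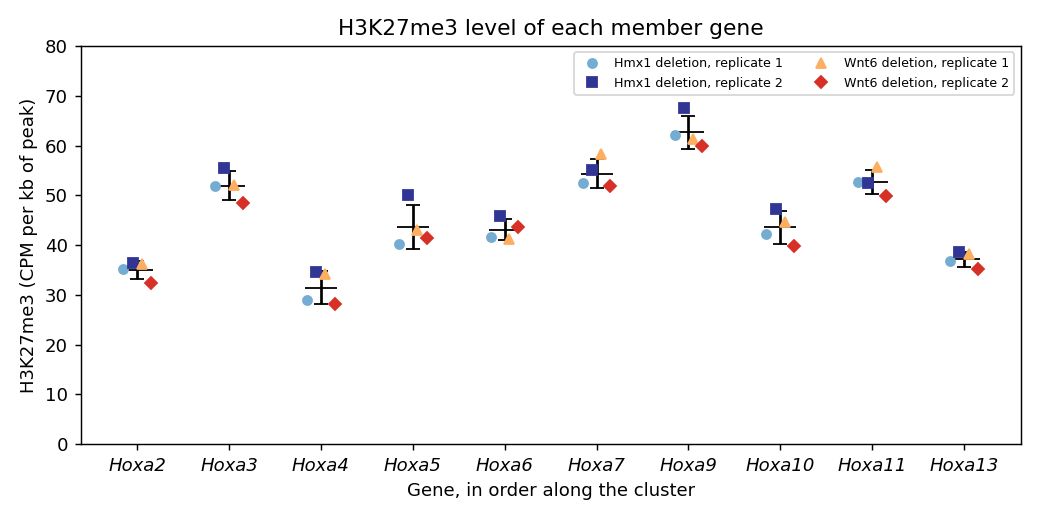
H3K27me3 in CPM per kb of peak (vertical axis) for each gene in its order along the cluster (horizontal axis), with a symbol for each of the 4 libraries with an intact cluster and a horizontal bar with whiskers for their mean and SD. Hoxa9 is the highest at 62.7, Hoxa4 the lowest at 31.5, and the other genes do not rise or fall steadily from 1 end to the other.

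The order along the body axis was not mirrored in a steady gradient. The anterior genes Hoxa2 and Hoxa3 together had 50.7 ± 2.76 CPM per kb (n = 4), the central genes Hoxa4 to Hoxa7 had 41.8 ± 2.72, and the posterior genes Hoxa9 to Hoxa13 had 44.5 ± 2.31. The groups are not separate: all 5 peaks of Hoxa4, Hoxa5 and Hoxa6 lie in the body of Hoxa3 and count in the anterior and the central group. The ratio of posterior to anterior was 0.863 and 0.868 in the Hmx1 deletion libraries and 0.895 and 0.880 in those of the Wnt6 deletion (0.876 ± 0.0140). It was below 1 in all 4 libraries, with an exact two-sided sign-flip permutation p of 0.13, the smallest that 4 libraries allow. Per kb of gene body, with peaks counted whole, it turned to 1.37.

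Non-coding genes embedded in the cluster carried levels in the same range. The gene of the microRNA miR-196b, a known regulator of Hox mRNAs, lay in a single peak between Hoxa9 and Hoxa10 (chr6:52229641-52230855) with 65.3 and 71.7 CPM per kb in the Hmx1 deletion and 66.8 and 60.4 in the Wnt6 deletion (66.0 ± 4.65). The 2 mature RNAs of this locus are given from RefSeq (GRCm38.p6, minus strand) with the seed, bases 2 to 8, in capitals, because this locus lies inside the interval and the seeds set which mRNAs the RNAs can pair with.
miR-196b-5p, chr6:52230129-52230150: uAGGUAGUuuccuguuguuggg
miR-196b-3p, chr6:52230094-52230115: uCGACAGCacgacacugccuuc

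Of the antisense and long non-coding genes, Hoxaas2 had 56.1 ± 5.73 CPM per kb, Hoxaas3 51.5 ± 2.68, Mira 43.3 ± 4.61, Hoxa11os, transcribed opposite Hoxa11, 42.8 ± 2.50, and Hottip, which lies beyond Hoxa13, 31.6 ± 2.39 (n = 4 each). The peaks of these genes are in part those of the Hox genes they overlap, and Cut&Tag does not separate strands, so their levels are not independent of the members. All of them lay within the range of the 10 members or, for miR-196b, just above it.

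Whether the state of the Hoxa cluster differed between the Wnt6 and the Hmx1 deletions was tested over all peaks and over all genes. A call needed a change of more than 1 in size on the log2 scale and an adjusted p under 0.05 in edgeR's quasi-likelihood test. None of the 46 peaks was called, where 0.0941% of 74386 peaks were called. At an unadjusted p under 0.05 there was 1 such peak in edgeR, at the start of Hoxa3 (chr6:52212773-52213291, log2 fold change -0.29, 95% interval -0.56 to -0.02, edgeR adjusted p = 0.880), and 0 in DESeq2, which called 0 as well. Over all 74386 peaks, 4106 were under 0.05 unadjusted in edgeR and 1237 in DESeq2, so this peak is no result about the members. This peak had 71.8 and 64.1 CPM per kb in the Hmx1 deletion and 51.5 and 58.1 in the Wnt6 deletion. The pairs of libraries did not overlap here, nor at other peaks such as the densest of the interval. How often this occurs over all peaks was not counted, so nothing about these peaks is read from it.

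Log2 fold changes of the 46 peaks ranged from -0.29 to 0.15, with a median of -0.10 against 0.00 over all tested peaks, and 35 of 46 were below 0 against 49.3% of all. The peaks are neighbours in the same libraries and not independent of each other. The median rested on the deeper libraries: it was -0.01 without the second Hmx1 deletion library and within 0.001 of 0, at -0.00035, without the second Wnt6 deletion library. Nor was the difference particular to Hoxa. As a whole Hoxa had 48.2 and 51.6 CPM per kb in the Hmx1 deletion, then 49.4 and 45.6 in the Wnt6 deletion. Hoxc had 48.5 and 52.0, then 49.4 and 45.8, and Hoxd 55.8 and 60.3, then 56.6 and 52.7. Hoxb had 41.9 and 46.7, then 44.8 and 42.1.

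The test per gene called 0 of the 10 members, where 0.0659% of 15165 genes were called, and 0 members had an unadjusted p under 0.05 in edgeR or in DESeq2, where 1957 and 1079 of all genes did. Hoxa5 had the largest value in size. It had 40.2 and 50.01 CPM per kb in the Hmx1 deletion and 43.0 and 41.4 in the Wnt6 deletion, so the groups overlapped, with a log2 fold change of -0.12 (SE 0.0884, 95% interval -0.29 to 0.05, edgeR adjusted p = 0.628). Hoxa3, with the narrowest interval, had 51.9 and 55.4, then 52.1 and 48.4 CPM per kb, which also overlapped, and a log2 fold change of -0.09 (95% interval -0.19 to 0.01).

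At Hoxa9 the pairs of libraries did not overlap, with 62.1 and 67.5, then 61.2 and 59.9 CPM per kb. How often this occurs over all genes was not counted, so nothing about Hoxa9 is read from it. For Hoxa9 the log2 fold change was -0.10 (95% interval -0.27 to 0.08), for Hoxa10 -0.09 (-0.22 to 0.04), for Hoxa2 -0.07 (-0.28 to 0.14) and for Hoxa4 -0.06 (-0.24 to 0.11). For Hoxa6 it was -0.04 (-0.22 to 0.14), for Hoxa13 -0.04 (-0.18 to 0.10), for Hoxa7 0.03 (-0.14 to 0.20) and for Hoxa11 0.01 (-0.16 to 0.17). The intervals of all 10 genes thus lay well inside the fold change minimum of 1 on the log2 scale. Without the first Hmx1 deletion library, the shallowest, 4 of the 10 members had an unadjusted p under 0.05 in edgeR (2097 of 15166 genes did), and Hoxa3 had an edgeR adjusted p of 0.0169 at a log2 fold change of -0.17, which stayed under the fold change minimum. Nothing says whether libraries of a deletion came from separate cultures, and p-values then measure only the spread between these libraries, which may be technical.

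**Figure D3:**
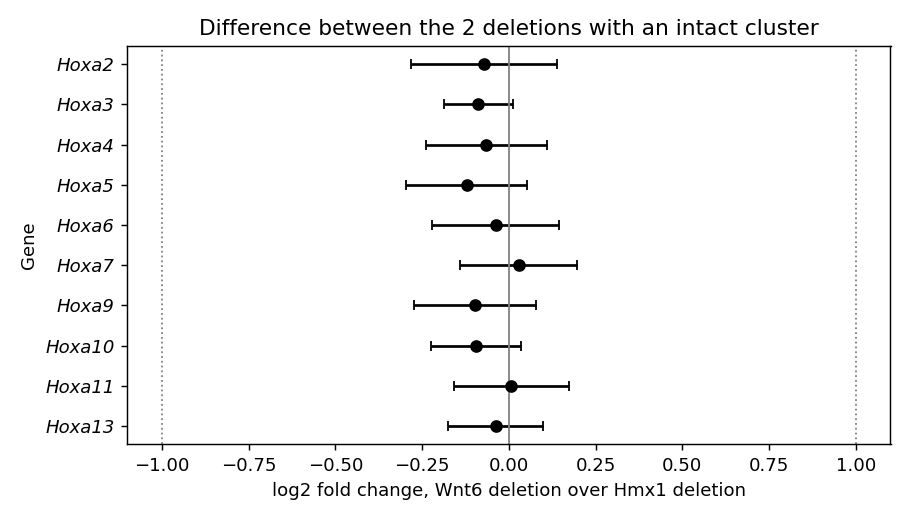
Log2 fold change of H3K27me3 in the Wnt6 deletion over the Hmx1 deletion (horizontal axis) for each gene (vertical axis), as points with 95% intervals from edgeR. The solid line marks no difference and the dotted lines the fold change minimum, at -1 and 1, and every interval includes 0, from -0.29 (lower end, Hoxa5) to 0.20 (upper end, Hoxa7).

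The 3 other Hox clusters were intact in the same libraries and gave a standard for the Hoxa level. Hoxa2 to Hoxa13 had 48.2, 51.6, 49.4 and 45.6 CPM per kb of peak in the 4 libraries (48.7 ± 2.49), Hoxc 48.9 ± 2.55, Hoxb 43.9 ± 2.29 and Hoxd 56.4 ± 3.12. Within each library the Hoxa level was above that of Hoxb (ratio 1.11 ± 0.0280), just below that of Hoxc (0.995 ± 0.00297) and below that of Hoxd (0.864 ± 0.00739), in all 4 libraries each time. The exact two-sided sign-flip permutation p was 0.13 for each of the 3 ratios (adjusted p = 0.13), the smallest possible. The Hoxb ratio turned to 0.972 with peaks in coding Hox genes alone, and the Hoxc ratio to 1.20 per kb of the whole interval, which raised the Hoxb ratio to 1.67, where the share of the interval in peaks enters. Peaks filled 36.7% of the Hoxa interval, 30.5% of Hoxc, 34.5% of Hoxd and 24.4% of Hoxb. The densest peak of the 4 clusters was that of Hoxa3, at 114 CPM per kb, against 92.8 in Hoxc, 87.9 in Hoxd and 76.6 in Hoxb.

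**Figure D4:**
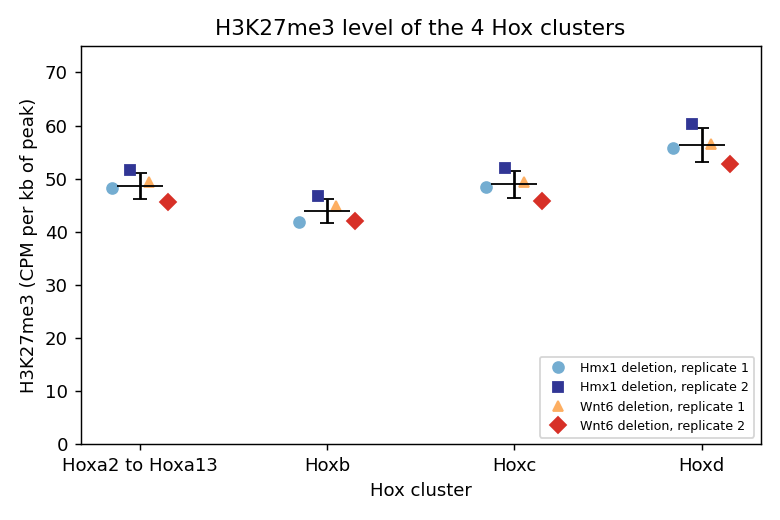
H3K27me3 in CPM per kb of peak (vertical axis) for Hoxa2 to Hoxa13 and the other Hox clusters (horizontal axis), with a symbol for each of the 4 libraries with an intact Hoxa cluster and a bar with whiskers for mean and SD. Hoxd is highest at 56.4, Hoxa (48.7) and Hoxc (48.9) are level, and Hoxb is lowest at 43.9.

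Genes with the same number in different clusters are paralogs, copies from the duplications of an ancestral cluster that often act in place of each other. Of the 21 paralogs of the members, the Hoxa gene had the lower level per kb of peak in all 4 libraries for 13 and the higher in all 4 for 4. With the densest peak of each gene in place of all its peaks these counts were 12 and 5, a comparison added after the data had been seen. The 4 were Hoxb7, against Hoxa7, and Hoxb9, Hoxc9 and Hoxd9, against Hoxa9. Hoxa9 thus exceeded all its paralogs, by 1.44 ± 0.117 over Hoxb9 (43.8 ± 4.01), 1.26 ± 0.0430 over Hoxc9 (49.9 ± 3.94) and 1.24 ± 0.0304 over Hoxd9 (50.6 ± 2.97). With the densest peak alone it exceeded Hoxb9 and Hoxd9 in 4 libraries and Hoxc9 in 2.

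Hoxa13, by contrast, was below its paralogs over all peaks. It had 36.8 and 38.6 CPM per kb in the Hmx1 deletion and 38.2 and 35.2 in the Wnt6 deletion, where Hoxc13 had 81.6 and 80.7, then 78.6 and 71.7, and Hoxd13 had 78.3 and 83.8, then 79.1 and 71.3. The ratio of Hoxa13 was 0.476 ± 0.0178 to Hoxc13 and 0.477 ± 0.0146 to Hoxd13. The wider of the 2 peaks of Hoxa13 (chr6:52260723-52263335, 30.6 CPM per kb) lies mostly beyond the start of the gene, at 52260880. The other had 50.2 CPM per kb. With the densest peak alone the ratios were 0.540 ± 0.0295 to Hoxc13 and 0.643 ± 0.0491 to Hoxd13. Hoxb13 (46.3 ± 3.95) also lay above Hoxa13 in all 4 libraries, though with the densest peak alone Hoxa13 was the higher in 3 of 4. Hoxa2 had 0.563 ± 0.0289 of the level of Hoxb2 (62.3 ± 4.41). Hoxa10 and Hoxa11 were below both of their paralogs, with ratios from 0.626 ± 0.0159 (Hoxc10) to 0.791 ± 0.0170 (Hoxd10). Among the central genes Hoxa4 had 0.766 ± 0.0406 of the level of Hoxb4, 0.972 ± 0.0738 of Hoxc4 and 0.619 ± 0.0421 of Hoxd4. Hoxa5 had 0.867 ± 0.0761 of Hoxb5 and 0.717 ± 0.0560 of Hoxc5, and Hoxa6 had 0.848 ± 0.0416 of Hoxb6 and 0.924 ± 0.0637 of Hoxc6. Of these 7, Hoxc4 and Hoxc6 were each below the Hoxa gene in 1 of 4 libraries. Hoxa3 was level with Hoxb3 (ratio 1.01 ± 0.0364) and Hoxd3 (1.01 ± 0.0104) over all peaks, while its densest peak was higher than theirs in 4 of 4 libraries, 1.54 ± 0.175 and 1.49 ± 0.0969 times. These ratios are descriptions, since 4 libraries allow no exact p below 0.13.

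In the Hoxa deletion libraries the interval was almost empty. This stretch was first located from the counts missing there, so its emptiness is no test. The 46 peaks together held 16, 82 and 46 counts in the 3 libraries, against 11660 to 71428 in the intact ones. Scaled, this was 0.0944%, 0.157% and 0.149% of the mean of the intact libraries (0.133% ± 0.0341, SD, n = 3). The interval took 0.194% to 0.208% of all counts in the intact libraries. No count was found in any of the 3 deletion libraries at 14 of the 46 peaks, where the limit that a count of 0 allows (3 counts) was 0.353, 0.115 and 0.193 CPM, and the lowest count of any member peak in an intact library was 51. The most counts in a peak were 11, at the peak over the start of Hoxa13 and Hottip in the third library, with 0 and 2 in the others. By gene the remainder ran from 0.0211% for Hoxa6 to 0.333% ± 0.234 for Hoxa13. PCR duplicates may be among these counts, so limits cover counting error only. In every member the remainder was thus under 1% of the intact level on average.

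Beyond the interval the mark went on in the intact libraries. On the side of Hoxa2, the peak over Hotairm1, a long non-coding RNA (chr6:52160461-52160910), had 49.2 ± 5.35 CPM per kb (n = 4). At Halr1, 58.6 kb from the interval, the level was 5.23 ± 0.489, below the median of all peaks. On the side of Hoxa13 the mark dipped to 9.70 ± 1.07 at 7.95 kb and rose again to 65.1 ± 3.62 at Evx1 (chr6:52313412-52318090).

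The retained neighbours were compared between the Hoxa deletion and the other deletions pooled, in edgeR over all peaks. Of 24 tested peaks over a list of neighbouring genes, 1 was called lower, where 0.983% of 74441 peaks were called lower. Of these, 15 overlapped Jazf1, far beyond Evx1, and they weigh most in the list's median log2 fold change of -0.03 (-0.01 over all peaks). Without the fold change minimum 3 of the 24 were called lower, where 3129 of 74441 peaks were. Among the 3 was a peak in Skap2 at 150 kb from the interval (chr6:52012131-52012923, log2 fold change -0.51, edgeR adjusted p = 0.0206). The called peak was that of Hotairm1, next to the missing stretch, with 8.80 ± 1.01 CPM per kb in the deletion (n = 3, log2 fold change -2.45, SE 0.151, edgeR adjusted p = 4.47e-18). The Evx1 peak had 67.5 ± 2.90 in the deletion, a log2 fold change of 0.05 (95% interval -0.08 to 0.19, edgeR adjusted p = 0.736).

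Between the end of the interval and Evx1, 4 peaks in no listed gene, chosen after their values were seen, were also called lower. Their log2 fold changes were -2.60 at 1.62 kb, -2.06 at 6.61 kb, -1.86 at 7.95 kb and -1.01 at 16.5 kb from the interval, smaller in size with distance, and the next peak, at 31.3 kb, had -0.24 (edgeR adjusted p = 0.143). The 4 called peaks had 2.72, 3.28, 2.70 and 17.8 CPM per kb in the deletion, against 18.6, 14.0, 9.70 and 35.7 in the intact libraries. Whether the deletion itself reaches past the last member peak was not tested.

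**Figure D5:**
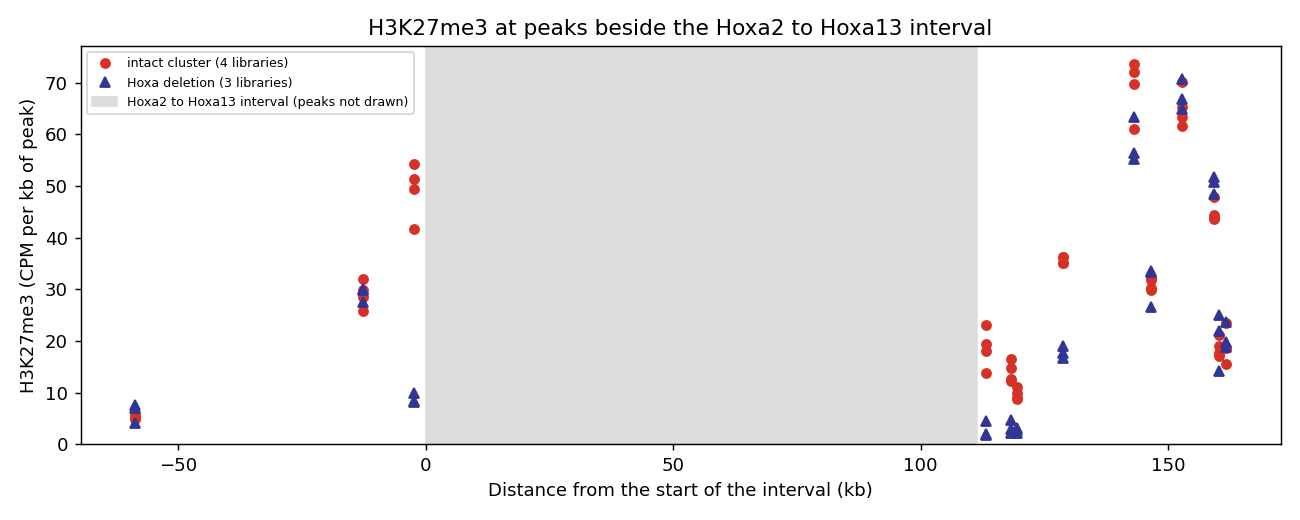
H3K27me3 in CPM per kb of peak (vertical axis) at peaks near the interval, against the distance from its start in kb (horizontal axis), in the 4 libraries with an intact cluster (circles) and the 3 of the Hoxa deletion (triangles). The grey band is the interval of Hoxa2 to Hoxa13, whose peaks are not drawn; the sets of symbols are apart at Hotairm1 (49.2 against 8.80) and mix at Evx1 (65.1 against 67.5).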

How the data were processed

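H3K27me3 Cut&Tag libraries of mESCs were analysed; the 7 IgG samples were not analysed here. The authors deposited raw counts per peak over a list shared by the 7 libraries. Per the labels, the processing notes name the build mm10 and the tools Trimmomatic, Bowtie2, SAMtools, Picard, MACS2 and deepTools, with no role or version. How the list was made, whether duplicates were removed and whether reads or fragments were counted is not given in the sources used here. Peaks strong in the libraries used to make the list are favoured.

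Samples were grouped by their titles. Peaks were matched to RefSeq gene bodies (GRCm38.p6), where a peak over several genes counted for each. Starts are given as deposited. The table has no strand or exon, so exonic and intronic peaks were not told apart. Counts were scaled by TMM factors (0.973 to 1.05) and given as CPM per kb of peak. Peaks and gene sums were tested with edgeR 4.0.16 (filterByExpr, glmQLFit and glmQLFTest, limma 3.58.1, R 4.3.3), with a Benjamini-Hochberg adjusted p under 0.05 and an absolute log2 fold change over 1 as the call. The fit of the Wnt6 against the Hmx1 deletion used the 4 intact libraries. Ratios within libraries had exact sign-flip permutation tests. DESeq2 1.42.0, other scalings and filters, downsampling, a replicate block and leaving out libraries were alternatives. The procedure was tested on simulated data. The values of 1 neighbouring gene are not reported here. Plots used matplotlib 3.10.9 (Python 3.11.15).

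Totals of 6016500 to 36563541 counts gave at least 51 counts in each member peak of an intact library. The rule for names took all members, the densest peak of each, the 3 densest and 3 lowest peaks, called peaks, paralogs, embedded non-coding genes and retained neighbours, of which far neighbours are given in part. Members, lists and tests were chosen with earlier results of these data known.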

Additional observations from a re-analysis of the deposited data

How the results depend on the processing

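Of 206 values under alternative settings, 182 stayed on the same side or within the spread, 18 changed sign and 6 moved. No member peak and no member gene was called under any setting run. For gene log2 fold changes, all far under the fold change minimum, leaving out 1 library gave -0.20 to 0.12 for Hoxa4, -0.27 to 0.10 for Hoxa5, -0.14 to 0.073 for Hoxa6, -0.038 to 0.096 for Hoxa7, -0.18 to 0.0022 for Hoxa9, -0.20 to 0.025 for Hoxa10, -0.031 to 0.042 for Hoxa11 and -0.11 to 0.027 for Hoxa13. Hoxa11 was -0.0073 with DESeq2, -0.0094 with RLE factors and -0.0043 with all 7 libraries. The median of the 46 peaks ranged from -0.14 to -0.00035 with 1 library left out. The ratio of highest to lowest member was 4.57 per kb of gene body, 2.71 for densest peaks and 1.79 for the 7 members left without shared peaks. Posterior over anterior was 1.37 per kb of gene body. Hoxa over Hoxb was 0.972 in coding Hox genes, and per kb of the interval Hoxa over Hoxc was 1.20 and Hoxa over Hoxb 1.67. Without a fold change minimum 3 of 24 neighbour peaks were called lower, where 3129 of 74441 peaks were. The cause of these shifts was not tested.

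Replicate numbers are shared by the Wnt6 and Hmx1 deletions. The deviations of same-numbered libraries had r = -0.01 over 74386 peaks, and these libraries were not treated as pairs. This r cannot show that pairing is absent. The first replicates had a median of 23 (Hmx1 deletion) and 37 (Wnt6 deletion) counts per peak, where counting error can hide a shared deviation. With the replicate block, 67 peaks in all and 0 of the 46 were called, and the median of the 46 was -0.10. With a library left out, a lone library of a deletion is assumed to vary like the others. For levels, the spread of 4 libraries of 2 deletions limits the precision, and first replicates are the shallowest.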
